A study of Homo sapiens with 10 samples.

Results

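AXL, MET, FGFR1, FGFR2, FGFR3, PDGFRA, PDGFRB, IGF1R and INSR are receptor tyrosine kinases, and they were followed here in MCF10A cells with and without an oncogenic HRas and with and without Nutlin-3a. They were selected by gene symbol alone, as 9 of the 26256 genes in the table of the untreated cells and 9 of the 55736 genes in the table of the Nutlin-3a experiment. MCF10A is a nontransformed line of human mammary epithelial cells. G12V cells are MCF10A cells transduced with a viral HRas V12 vector, together with a GFP vector, and selected in hygromycin. RNA-seq of poly(A) RNA was available for 2 MCF10A and 2 G12V libraries without treatment, and for 3 libraries each of parental MCF10A cells that were kept for 4 h with Nutlin-3a at 10 µM or with DMSO. Nutlin-3a blocks the contact of MDM2 with p53, and DMSO is the solvent. The medium of all groups held 20 ng/ml epidermal growth factor, 0.01 mg/ml insulin, hydrocortisone, cholera toxin and horse serum. The paper reports that the G12V cells at first stopped growing and resumed growth some weeks later. Effects of HRas, of the transduction and selection that went with it, and of that arrest and regrowth cannot be told apart in the G12V cells.

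A receptor tyrosine kinase spans the plasma membrane, pairs when its ligand binds, and phosphorylates itself on tyrosines that docking proteins recognise. One of the routes that start there runs through the exchange factor SOS to RAS, so these receptors lie upstream of HRas in the normal cell. In mammary epithelium the FGF receptors take part in branching of the ducts, MET is the receptor of hepatocyte growth factor, IGF1R and INSR bind the insulin-like growth factors and insulin, AXL binds GAS6, and the PDGF receptors are better known from stromal cells.

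The total count per library was 21538593 to 23683975 in the untreated cells and 15453226 to 17378734 in the Nutlin-3a experiment. Levels are given as counts per 1000000 counts of the library (CPM), and where genes are compared with each other, as CPM per kilobase of the canonical transcript (RPKM). HRAS stood at 69.3 ± 4.77 CPM in MCF10A against 573 ± 82.0 CPM in G12V cells (SD, 2 libraries each), which goes with the labels. The epithelial marker genes KRT5, CDH1, EPCAM and TP63 were lower in G12V cells by edgeR's quasi-likelihood test, 4 of a list of 7. KRT18 (log2 fold change -0.71, edgeR adjusted p = 0.0684) and KRT8 (0.18, edgeR adjusted p = 0.661) did not pass. KRT19 had too few counts to be tested. The summed level of the list was 4619 to 5696 CPM in MCF10A and 1361 to 1661 CPM in G12V cells. Most of that sum was KRT5, with means of 4194.8 CPM in MCF10A and 1078.2 CPM in G12V cells. CDH1, the adhesion protein E-cadherin, had 219 ± 27.3 CPM in MCF10A and 0.481 ± 0.0761 CPM in G12V cells (SD, n = 2 each). Of 4 leukocyte markers PTPRC and CD3E had at most 3 counts in every library and CD68 rose, with a summed level of 12.2 to 12.4 CPM in MCF10A and 37.3 to 72.7 CPM in G12V cells. Of 4 endothelial and 4 smooth muscle and pericyte markers 0 were DE. The summed fibroblast markers, a list of 7 that holds PDGFRA and PDGFRB, had 37.5 to 64.9 CPM in MCF10A and 53.4 to 60.1 CPM in G12V cells. LUM rose, but only from 0.0227 to 1.20 CPM, and COL1A2 and COL3A1 had at most 3 counts. DCN (41.8 CPM in MCF10A and 50.8 in G12V cells) and COL1A1 (8.70 and 3.94) did not pass the test. Under Nutlin-3a the epithelial sum was 3538 to 5803 CPM, and under DMSO 3316 to 5404 CPM. The part of these marker differences in the receptor values was not tested.

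The FGF receptors FGFR3, FGFR2 and FGFR1 and the receptors IGF1R and INSR differed between the groups of the untreated cells. FGFR3 and FGFR2 were lower and FGFR1 was higher in G12V cells, IGF1R and INSR were lower, and AXL, MET and PDGFRB did not pass the test. A gene was called differentially expressed (DE) at an adjusted p under 0.05 from edgeR's quasi-likelihood test and an absolute log2 fold change above 0.5. By that rule 5 of the 8 receptors tested were DE, 1 higher and 4 lower, where 11.0% of the 14376 genes tested were DE, 5.01% higher and 5.95% lower, and 25.6% had an unadjusted p under 0.05. The groups did not overlap for 7 of the 8, 1 higher and 6 lower, where 54.8% of all tested genes did not overlap, 27.5% higher and 27.4% lower. The median log2 fold change of the 8 was -0.76 and their median absolute value 1.52, beside -0.0011 and 0.36 over all genes tested. PDGFRA was left out of the test by the filter on low counts. In bulk RNA, fewer cells with a transcript and less of it per cell cannot be told apart.

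**Figure D1:**
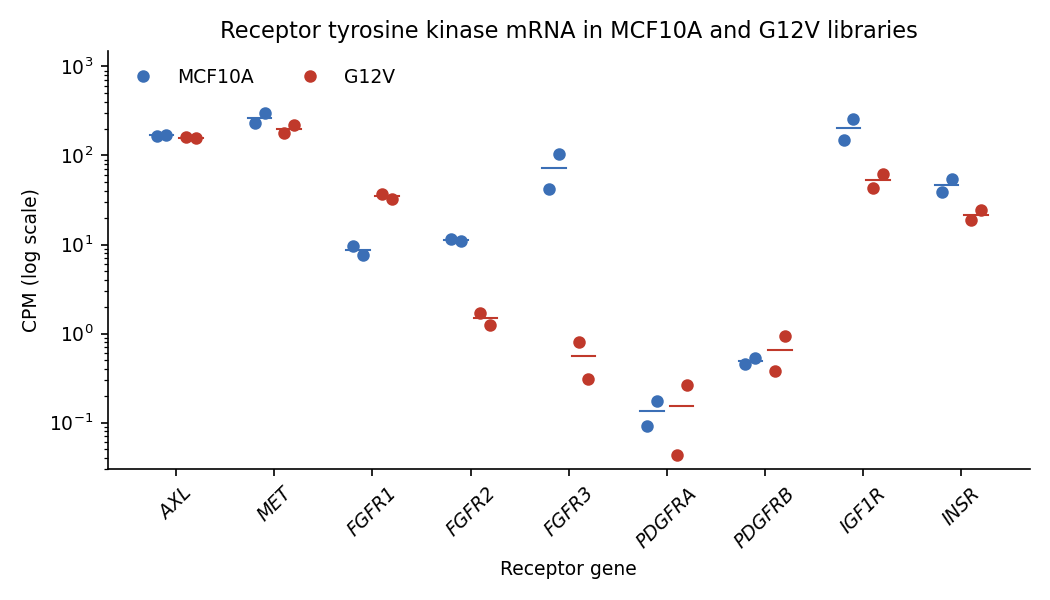
Level of each of the 9 receptor genes in the untreated cells, in CPM on a log axis, with 1 point per library and a bar at the mean of each group (n = 2). FGFR3 lies at 41.8 and 103.6 CPM in MCF10A and below 1 CPM in G12V cells, FGFR1 lies higher in both G12V libraries, and the AXL points nearly coincide.

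FGFR3, a receptor of FGF1, FGF9 and FGF18 that is found in many epithelia, had 41.8 and 103.6 CPM in MCF10A libraries and 0.812 and 0.312 CPM in G12V libraries. These were 920 and 2352 reads against 19 and 7. All 4 libraries lay by group, and the highest library exceeded the lowest 2.48 times within MCF10A and 2.60 times within G12V cells. The log2 fold change was -6.99 (SE 0.67, 95% interval -8.63 to -5.36, edgeR adjusted p = 0.00359), 127-fold lower in G12V cells. The size depends on single libraries, at -6.20 without MCF10A replicate 2, -7.84 without G12V replicate 1 and between these without either of the others. Parental cells of the Nutlin-3a experiment, counted on another annotation, had only 7.07 ± 0.591 CPM in DMSO (SD, n = 3). That difference between parental cells was not tested. FGFR3 lies on chromosome 4 from 1795039 to 1810599 on the plus strand (hg19), at the tip of the short arm. Of the 16 other tested genes within 500 kb, 1 was higher and 3 were lower, with a median log2 fold change of -0.84. The other 174 tested genes of 4p held 11 that were higher and 29 that were lower, with a median of -0.25. Of all tested genes 5.01% were higher and 5.95% lower.

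FGFR2, whose epithelial splice form answers to FGF7 and FGF10 from the stroma, was lower as well. It had 11.5 and 10.8 CPM in MCF10A and 1.71 and 1.25 CPM in G12V libraries, and the groups were wide apart. The log2 fold change of FGFR2 was -2.91 (SE 0.34, edgeR adjusted p = 0.00609), a 7.53-fold lower level. The counts are per gene, so the epithelial and mesenchymal splice forms of FGFR1, FGFR2 and FGFR3 were not separated.

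FGFR1, the FGF receptor usually found in mesenchymal cells, went the other way. It had 9.59 and 7.58 CPM in MCF10A and 36.6 and 32.6 CPM in G12V libraries, without overlap. Its log2 fold change was 2.01 (SE 0.24, edgeR adjusted p = 0.00670), a 4.03-fold higher level. None of its 11 tested neighbours within 500 kb on chromosome 8 was DE, by the same test, and their median log2 fold change was 0.25.

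Per kilobase, FGFR3 led the FGF receptors in both MCF10A libraries, and FGFR1 and FGFR4 led in both G12V libraries. FGFR3 made up 64.9% and 84.5% of the RPKM of FGFR1 to FGFR4 in the MCF10A libraries and 1.73% and 0.615% in the G12V libraries. FGFR1 made up 11.2% and 4.67% in the MCF10A libraries but 59.1% and 48.5% in the G12V libraries, and most of the rest in G12V cells was FGFR4, at 35.8% and 48.6%. FGFR4, another receptor of the family, rose by a log2 fold change of 2.40 (SE 0.36, edgeR adjusted p = 0.0128). The sum over the 4 receptors was 14.99 and 28.5 RPKM in the MCF10A libraries and 10.9 and 11.8 RPKM in the G12V libraries. The shares depend on the length used. With the length of all exons FGFR3 held 82.2% and 93.5% in the MCF10A libraries and 3.42% and 1.13% in the G12V libraries, and FGFR1 held 5.31% and 1.93% and then 43.5% and 33.2%. FGFR4 then led in both G12V libraries, at 51.2% and 64.6%.

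**Figure D2:**
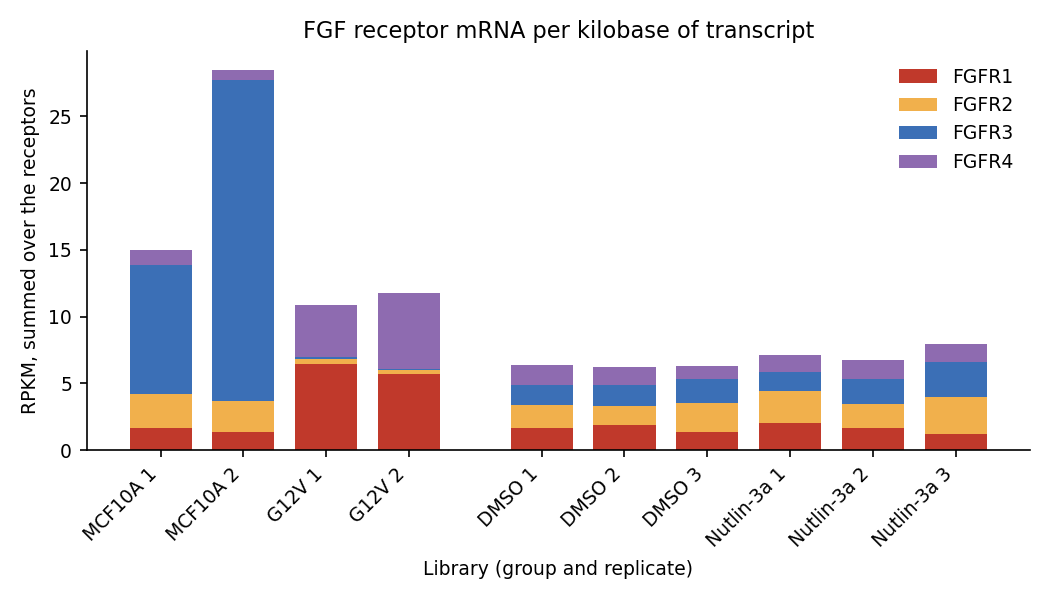
RPKM of FGFR1, FGFR2, FGFR3 and FGFR4 in each library, stacked, with the untreated cells on the left and the Nutlin-3a experiment, counted on another annotation, on the right. FGFR3 fills most of the MCF10A bars (64.9% and 84.5%) and is hardly seen in the G12V bars, where FGFR1 and FGFR4 fill nearly all, and the DMSO and Nutlin-3a bars are split among all 4 receptors.

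IGF1R, the receptor of the insulin-like growth factors, had 148.5 and 258.1 CPM in MCF10A and 43.3 and 62.0 CPM in G12V libraries. The MCF10A libraries differed by 1.74 times, but both lay above both G12V libraries. The log2 fold change of IGF1R was -1.95 (SE 0.33, edgeR adjusted p = 0.0182), 3.86-fold lower. INSR, the insulin receptor, had 38.5 and 53.8 CPM in MCF10A and 19.0 and 24.2 CPM in G12V libraries. Its groups did not overlap either, and INSR was 2.13-fold lower (log2 fold change -1.09, SE 0.26, edgeR adjusted p = 0.0498), just inside the threshold. The call of INSR was lost in 7 of the 18 alternatives run, with RLE factors (adjusted p = 0.0513), with no filter (adjusted p = 0.0626) and without MCF10A replicate 1, MCF10A replicate 2 or G12V replicate 1, the last pair in DESeq2 too, while its log2 fold change stayed between -1.33 and -0.83. Of the RPKM of the pair IGF1R held 74.9% and 78.8% in the MCF10A and 63.8% and 66.5% in the G12V libraries, so it was the more abundant transcript in all 4 libraries. Of the 4 tested neighbours of IGF1R within 500 kb 0 were DE, at log2 fold changes from -2.52 to -0.19. Of the 18 of INSR 1 was higher and 2 were lower, and their median was -0.42.

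The antisense gene IRAIN overlaps the start of IGF1R on the opposite strand (chromosome 15, 99189095 to 99194450, hg19) and had 5 to 53 counts in the untreated libraries. The library kit does not mark strand, so reads in that overlap cannot be assigned to either gene, against the 1013 to 5861 counts of IGF1R.

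AXL and MET were the most abundant of the 9 in G12V cells and not DE. AXL, the receptor of GAS6, had 167.6 and 171.2 CPM in MCF10A and 160.5 and 157.2 CPM in G12V libraries. Both G12V values were lower, by little, and the log2 fold change of AXL was -0.09 (95% interval -0.51 to 0.33, edgeR adjusted p = 0.807). MET had 228.7 and 303.0 CPM in MCF10A and 177.4 and 218.4 CPM in G12V libraries. The MET groups did not overlap, but the log2 fold change of -0.43 (95% interval -0.99 to 0.14, edgeR adjusted p = 0.322) did not pass. With the replicate number as a block it was -0.42 (95% interval -0.71 to -0.13, edgeR adjusted p = 0.0316). MET then missed the call by the threshold of 0.5 on the log2 fold change, and with 2 libraries per group the pairing by number is not established. The intervals without the block leave room for a change of either receptor up to their limits.

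The PDGF receptors were at the edge of detection. PDGFRA had 2 and 4 reads in MCF10A and 1 and 6 in G12V libraries, and it was not tested. PDGFRB had 10 and 12 reads in MCF10A and 9 and 21 in G12V libraries, overlapping groups, and a log2 fold change of 0.42 (95% interval -0.98 to 1.81, edgeR adjusted p = 0.726) that turned to -0.35 without G12V replicate 2. At these counts PDGFRA has no interval, and that of PDGFRB leaves room for a change in either direction up to its limits.

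In hg19 coordinates of the table of the untreated cells, FGFR2 lies on chromosome 10 from 123237844 to 123353481 (minus strand) and FGFR1 on chromosome 8 from 38268656 to 38326352 (minus). IGF1R lies on chromosome 15 from 99191768 to 99507759 (plus) and INSR on chromosome 19 from 7112266 to 7294011 (minus). AXL is on the other arm of chromosome 19, from 41725104 to 41767672 (plus), and MET on chromosome 7 from 116312459 to 116438440 (plus). PDGFRA is on chromosome 4, as FGFR3 is, but at 55095264 to 55164412 (plus), and PDGFRB on chromosome 5 from 149493402 to 149535422 (minus).

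**Figure D3:**
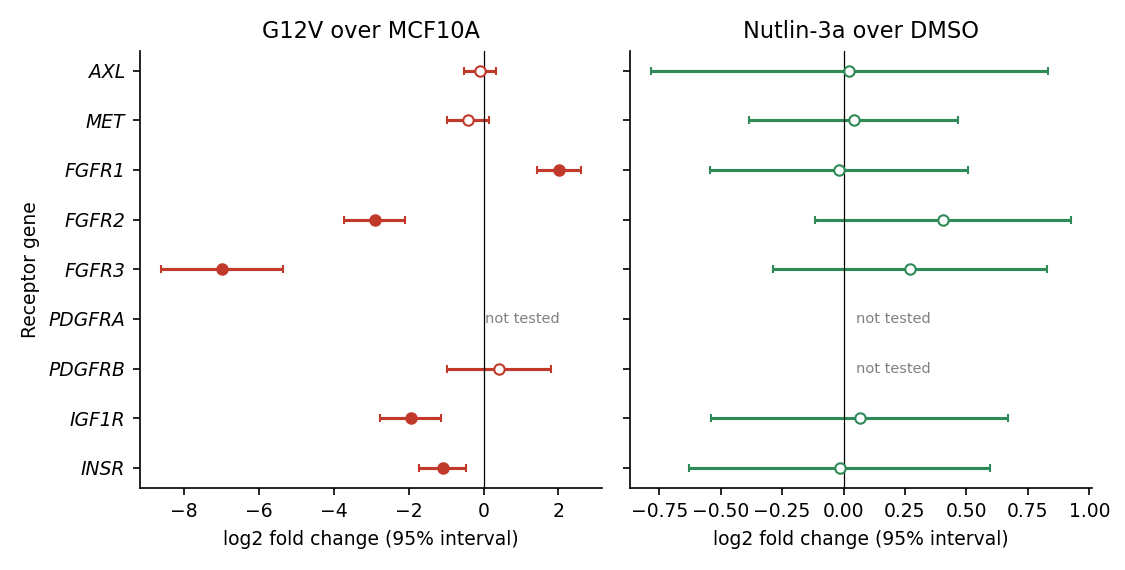
Log2 fold change of each receptor gene with its 95% interval, G12V over MCF10A on the left (n = 2 per group) and Nutlin-3a over DMSO on the right (n = 3 per group), with a filled point for DE genes. The horizontal scales differ. On the left FGFR3, FGFR2, IGF1R and INSR lie below 0 and FGFR1 above, and on the right every interval, from the fit without the replicate block, includes 0.

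The calls in the untreated cells rest on 2 libraries per group. Without MCF10A replicate 1 the quasi-likelihood fit called no gene of the whole table DE (2830 at an unadjusted p under 0.05), so the 5 receptors lost their calls at adjusted p values of 0.0625 to 0.145, with log2 fold changes of -7.47 for FGFR3, -2.84 for FGFR2, 2.22 for FGFR1, -2.27 for IGF1R and -1.29 for INSR. With 1 library left in an arm, its spread is taken to be that of the other group. DESeq2 without the same library, chosen after this was seen, called 1489 genes and all 5 of the receptors.

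By RPKM, the receptors fell into an order that changed between the groups. In MCF10A the order was MET (39.0) and AXL (35.9), then FGFR3 (16.9) and IGF1R (16.6), INSR (4.88), FGFR2 (2.42), FGFR1 (1.51), PDGFRB (0.0862) and PDGFRA (0.0209). The ranges of MET and AXL overlapped, as did those of FGFR3 and IGF1R, and the other neighbours were apart. In G12V cells it was AXL (33.7), MET (29.0), FGFR1 (6.08), IGF1R (4.31), INSR (2.29), FGFR2 (0.320), FGFR3 (0.131), PDGFRB (0.116) and PDGFRA (0.0243), and only FGFR3 and PDGFRB overlapped among neighbours. With this length FGFR1 moved from the seventh place to the third and FGFR3 from the third to the seventh. The places in G12V cells depend on the length used. With the length of all exons FGFR1 had 2.13 and 1.90 RPKM in the G12V libraries, below IGF1R at 3.11 and 4.45. Its range then overlapped that of INSR, at 1.76 and 2.24. Those of FGFR3 (0.168 and 0.0644) and FGFR2 (0.0909 and 0.0664) overlapped as well.

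The RefSeq promoter table (GRCh38.p14) held 8 of the 9 receptors, all but FGFR1. The 250 bases before the start are shown for the receptors that were lower in G12V cells and whose window lies within 500 bases of the start in the table of counts. Each was found once on its chromosome in GRCh37, at chr4:1794770-1795019 on the plus strand for FGFR3, chr15:99191518-99191767 on the plus strand for IGF1R and chr19:7294426-7294675 on the minus strand for INSR. They are written 5′ to 3′ on the gene's strand, with capitals for the GC box GGGCGG on either strand, the motif known for Sp1 and related factors, which may overlap.
FGFR3 promoter: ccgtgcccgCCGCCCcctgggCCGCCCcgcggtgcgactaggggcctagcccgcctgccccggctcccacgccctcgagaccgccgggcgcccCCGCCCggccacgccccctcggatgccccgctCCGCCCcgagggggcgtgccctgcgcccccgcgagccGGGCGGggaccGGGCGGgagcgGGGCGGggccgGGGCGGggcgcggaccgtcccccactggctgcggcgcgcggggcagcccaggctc
IGF1R promoter: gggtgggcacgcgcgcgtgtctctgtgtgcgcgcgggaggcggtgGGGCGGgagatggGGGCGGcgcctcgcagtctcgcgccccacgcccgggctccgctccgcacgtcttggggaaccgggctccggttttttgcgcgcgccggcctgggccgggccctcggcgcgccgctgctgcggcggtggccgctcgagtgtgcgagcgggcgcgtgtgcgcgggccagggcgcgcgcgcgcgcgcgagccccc
INSR promoter: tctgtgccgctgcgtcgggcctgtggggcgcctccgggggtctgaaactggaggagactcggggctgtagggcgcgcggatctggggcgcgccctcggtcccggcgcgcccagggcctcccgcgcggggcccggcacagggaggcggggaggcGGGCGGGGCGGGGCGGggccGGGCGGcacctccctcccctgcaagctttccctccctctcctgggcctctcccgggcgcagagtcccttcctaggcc

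The FGFR3 window held 8 GC boxes, a number reached by 0.619% of the 27305 promoters of the table, and its GC content was 86.8% where the median promoter had 58.0%. The IGF1R window held 2 and the INSR window 4, with a GC content of 81.2% and 78.4%. FGFR2, whose RefSeq window starts 4477 bases from the start in the table of counts, held 3 at 78.4%. AXL and MET held 2 each, PDGFRB 1 and PDGFRA 0, and 42.3% of all promoters held at least 1. The letters TGANTCA (AP-1) were found in PDGFRA alone of the 8 and in 6.60% of all promoters, CAGGTG in AXL alone and in 17.5%, and CCAAT in FGFR2 and PDGFRB and in 33.0%. A p53 half-site was found in none of the 8 windows and in 5.53% of all. All searches read both strands, and a match is a description of letters only.

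Ligands of these receptors and relatives of such ligands were measured in the same libraries (21 genes). Of the 11 that could be tested in the untreated cells 3 were higher and 2 lower, with a median log2 fold change of 0.88. The 11 and their median include FGF13 and FGF11 (log2 fold change -1.31, not DE), which belong to the intracellular group described below. Among all tested genes 5.01% were higher and 5.95% lower. FGF2, a ligand of all the FGF receptors and best known with FGFR1, had 18.0 ± 5.75 CPM in MCF10A and 126.7 ± 10.6 CPM in G12V cells (SD, n = 2 each), a log2 fold change of 2.81 (edgeR adjusted p = 0.00368). FGF13 rose from 0.470 ± 0.0212 to 22.5 ± 4.99 CPM (SD, n = 2 each, log2 fold change 5.56, edgeR adjusted p = 0.00124), but it is one of the intracellular FGF homologous factors, which are not secreted and do not signal through the receptors in the usual way. GAS6, the ligand of AXL, and its relative PROS1, which is not an established ligand of AXL, went in opposite directions. GAS6 fell from 215.9 ± 38.9 to 68.3 ± 1.67 CPM (log2 fold change -1.66) and PROS1 rose from 26.8 ± 8.20 to 81.2 ± 26.2 CPM (log2 fold change 1.60; SD, n = 2 each). By edgeR's quasi-likelihood test the adjusted p was 0.00725 for GAS6 and 0.0303 for PROS1. PROS1 made up 6.04% and 11.4% of the RPKM of the pair in the MCF10A libraries and 41.0% and 51.6% in the G12V libraries. PDGFD, a ligand of PDGFRB, fell by 4.68 on the log2 scale, from 9.62 ± 4.28 to 0.369 ± 0.143 CPM (SD, n = 2 each, edgeR adjusted p = 0.00614). HGF, the ligand of MET, had at most 1 count in any of the 4 libraries, and INS and FGF10 had 0 counts in all of them, which allows up to 0.127 to 0.139 CPM by library.

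Of the 14 docking and adaptor proteins, all tested, GAB1 alone was DE, where DESeq2 and the exact test each called 3, the replicate block 7, and the fits with a library left out 0 to 2. GAB1, which docks to MET and other receptors, had 21.3 ± 5.76 CPM in MCF10A and 7.63 ± 2.08 CPM in G12V cells (SD, n = 2 each; log2 fold change -1.48, edgeR adjusted p = 0.0413), a call that was also lost without MCF10A replicate 2 (adjusted p = 0.150, and 0.230 by DESeq2) and by DESeq2 without G12V replicate 1 (adjusted p = 0.0717). IRS2, which carries signals of INSR and IGF1R, had 143.7 ± 33.9 and 63.7 ± 26.7 CPM (SD, n = 2 each), and did not pass (log2 fold change -1.17, edgeR adjusted p = 0.0828). The median log2 fold change of the 14 was 0.10, and 11.0% of all tested genes were DE.

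Of 25 co-receptors, binding proteins and brakes 22 were tested, and 1 was higher and 4 were lower, with a median of 0.20. The shares over all tested genes were 5.01% higher and 5.95% lower. The higher gene was PTPRJ, a receptor phosphatase that removes phosphate from MET and the PDGF receptors, at 2.18 and 1.72 CPM in MCF10A and 29.5 and 32.3 CPM in G12V libraries (log2 fold change 3.98, edgeR adjusted p = 0.00139). IGFBP7, a secreted protein of the insulin-like growth factor binding group, had a log2 fold change of -5.78, and FGFBP1, a secreted carrier of FGFs, one of -4.55. SDC1, a heparan sulphate proteoglycan that presents growth factors, was at -2.47, and LRIG3, a membrane protein of a family that restrains receptor tyrosine kinases, at -1.21. The adjusted p was 0.000452 for IGFBP7, 0.00334 for FGFBP1, 0.00304 for SDC1 and 0.0309 for LRIG3 by edgeR's quasi-likelihood test. LRIG3 lost its call without MCF10A replicate 2 (adjusted p = 0.138), and FGFBP1 ranged from -5.30 without G12V replicate 2 to -4.06 without G12V replicate 1.

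A further list of 27 receptor tyrosine kinases, without the ERBB and Eph families, gave 15 that were tested, 3 higher and 3 lower, with a median of 0.35. Again the shares over all tested genes were 5.01% higher and 5.95% lower. TYRO3, the relative of AXL, rose by a log2 fold change of 1.26, and MST1R, the relative of MET, had -2.63. FGFR4 rose by 2.40, as given above, while DDR1, a collagen receptor, had -2.15 and CSF1R -5.01. Their adjusted p values in edgeR's quasi-likelihood test were 0.0178 for TYRO3, 0.00384 for MST1R, 0.00970 for DDR1 and 0.00617 for CSF1R. TYRO3 lost its call without MCF10A replicate 2 (adjusted p = 0.0727). CSF1R reached -4.42 without MCF10A replicate 1. CSF1R is a member of the PDGF receptor family and lies within 500 kb of PDGFRB.

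**Figure D4:**
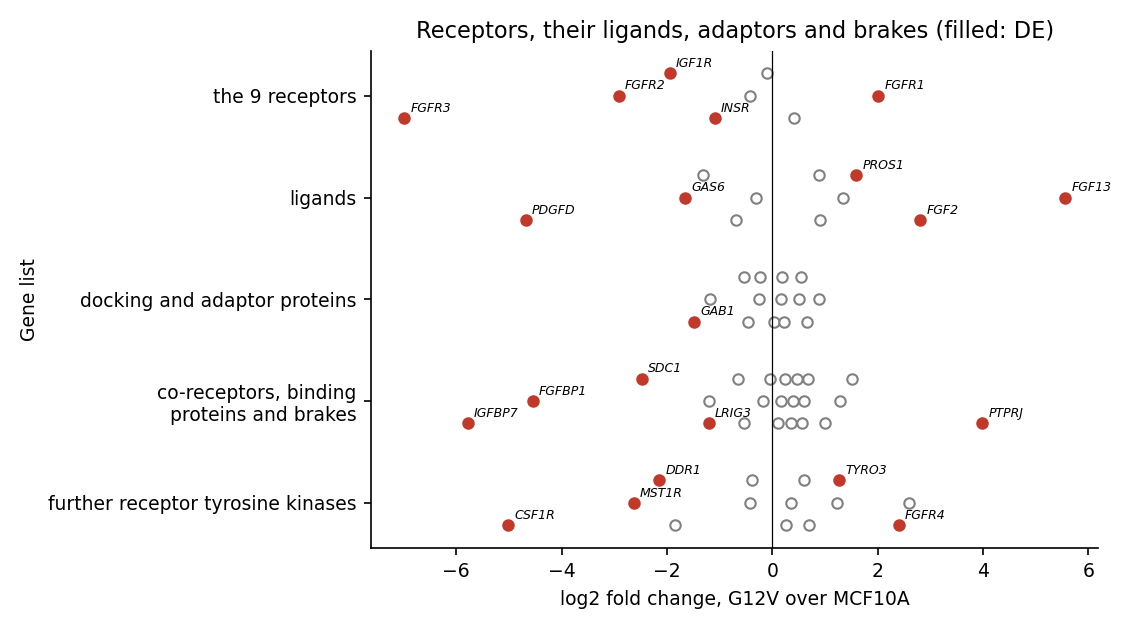
Log2 fold change, G12V over MCF10A, of the tested genes among the 9 receptors and the 4 lists, with 1 gene of the lists not shown, 1 point per gene, filled and named where DE. Of the 62 tested genes of the 4 lists 7 were DE and higher and 10 DE and lower, and the grey open points are genes that did not pass.

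Across all 10 libraries, after centring log2(CPM + 1) within each table, the genes whose profiles differed least from those of the FGF receptors were sought among 12071 genes tested in both tables. For FGFR3 they were PNLIPRP3, DSC3 and IGFBP7 (root mean square difference 0.237, 0.283 and 0.294), for FGFR2 TMEM40 and SDC1 among the nearest 3 (0.142 and 0.166) and for FGFR1 B4GALT6, CDH2 and STAC (0.0748, 0.105 and 0.138). CDH2 is N-cadherin and DSC3 a desmosomal cadherin. The measure follows the size of differences as well as their shape.

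Nutlin-3a for 4 h gave no DE receptor. Of the 7 receptors tested 0 were DE by edgeR's quasi-likelihood test, 0 had an unadjusted p under 0.05 without the replicate block, and 0 were DE by DESeq2 or by edgeR's exact test, where 0.170% of the 13529 genes tested were DE (23 genes, 0.155% higher and 0.0148% lower) and 3.42% had an unadjusted p under 0.05. The numbers of the libraries pair them, and with the number as a block 165 genes were DE, again with 0 receptors. The groups overlapped for all 7, where 8.07% of the tested genes did not overlap, 3.70% higher and 4.38% lower. The median log2 fold change of the 7 receptors was 0.04, beside 0.0066 over all genes.

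The 95% intervals were wide without the replicate block and narrower with it. Without it, for MET the log2 fold change was 0.04 (-0.39 to 0.47), for FGFR1 -0.02 (-0.54 to 0.51), for IGF1R 0.07 (-0.54 to 0.67), for INSR -0.02 (-0.63 to 0.60) and for AXL 0.02 (-0.78 to 0.83). With the block the limits were -0.21 to 0.23 for MET, -0.34 to 0.28 for FGFR1, -0.25 to 0.27 for IGF1R, -0.32 to 0.20 for INSR and -0.17 to 0.16 for AXL. MET had 196.9, 206.7 and 171.2 CPM in DMSO and 250.5, 193.4 and 147.3 CPM in Nutlin-3a replicates 1, 2 and 3, and IGF1R 118.4, 123.3 and 89.0 CPM and then 160.9, 112.4 and 72.6 CPM. INSR had 34.4, 26.2 and 24.7 CPM and then 39.5, 26.7 and 18.1 CPM, and FGFR1 9.51, 10.8 and 7.93 CPM and then 11.7, 9.30 and 6.84 CPM. In all 4 of these receptors replicate 1 was higher and replicate 3 lower with Nutlin-3a, and the groups overlapped. AXL spread most, with 201.8, 146.3 and 94.3 CPM in DMSO replicates 1, 2 and 3 and 217.8, 145.7 and 86.3 CPM in the Nutlin-3a replicates of the same numbers. Each AXL value thus lay near that of the library with its own number in the other group, and the difference between numbers was larger than that between treatments.

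FGFR2 was the receptor with the largest difference. It had 7.97, 6.38 and 9.92 CPM in DMSO and 10.9, 8.43 and 12.8 CPM in Nutlin-3a replicates 1, 2 and 3, higher with Nutlin-3a in 3 of 3 numbers by 0.45, 0.40 and 0.37 on the log2 scale. The groups overlapped, and the log2 fold change of 0.41 (SE 0.23, 95% interval -0.12 to 0.93) did not pass (adjusted p = 1.00 without the block and 0.146 with it, edgeR's quasi-likelihood test). With the block the interval of FGFR2 was 0.14 to 0.67 at an unadjusted edgeR p of 0.00585, which did not pass the adjustment over all genes. FGFR3 had 6.53, 6.99 and 7.70 CPM in DMSO and 6.10, 8.06 and 11.5 CPM in Nutlin-3a libraries, a log2 fold change of 0.27 (-0.29 to 0.83, with the block -0.09 to 0.58) that was -0.00054 without Nutlin-3a replicate 3.

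**Figure D5:**
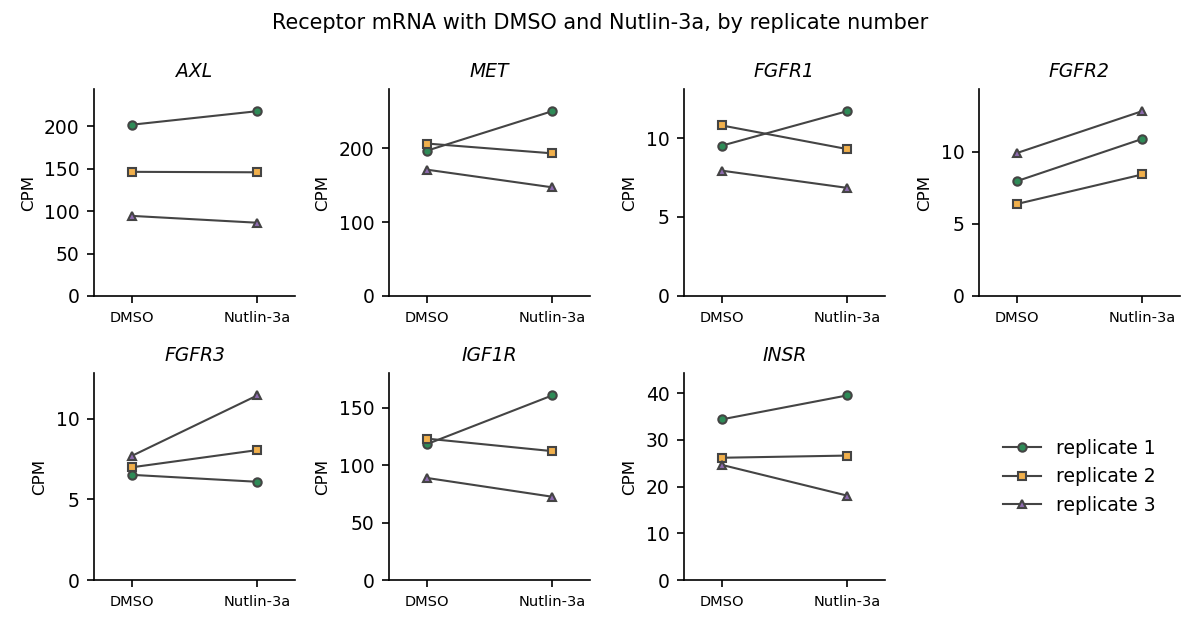
CPM of the 7 receptors tested in the Nutlin-3a experiment, with a line joining the DMSO and Nutlin-3a libraries of each replicate number (n = 3) and axes that start at 0. The lines of FGFR2 all rise, by 0.37 to 0.45 on the log2 scale, and those of the other 6 receptors run in both directions.

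PDGFRA had 1 count in each DMSO library and 0, 4 and 0 with Nutlin-3a, and PDGFRB had 3, 2 and 3 and then 4, 5 and 3, so neither could be tested. In this table FIP1L1, with 747 to 1018 counts, spans most of PDGFRA on the same strand. Of the 87 genes of the 4 lists 58 were tested and 0 were DE, with a median log2 fold change of 0.0042. The collagen receptor DDR2 alone had an unadjusted p under 0.05 (log2 fold change 0.73, edgeR adjusted p = 1.00), and it was singled out after its value was seen. IRS1, the docking protein of IGF1R and INSR, had 4.26, 10.8 and 7.23 CPM in DMSO and 2.65, 6.64 and 4.61 CPM with Nutlin-3a, lower in 3 of 3 numbers. It was DE only with the number as a block (log2 fold change -0.68, SE 0.14, adjusted p = 0.0348, against 1.00 without it, edgeR's quasi-likelihood test).

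In DMSO libraries the order by RPKM was AXL (31.3) and MET (28.1), IGF1R (9.01), INSR (2.61 to 3.64 over the libraries), then FGFR2 (1.75), FGFR1 (1.65) and FGFR3 (1.64), PDGFRB (0.0271) and PDGFRA (0.00915), with overlapping ranges for AXL and MET and among the 3 FGF receptors. With Nutlin-3a AXL (31.8) and MET (28.9) again led, and the ranges of INSR, FGFR2, FGFR3 and FGFR1 overlapped from one to the next. FGFR3 differed between the parental cells of the 2 tables, at 9.72 and 24.1 RPKM in untreated MCF10A and at 1.52 to 1.79 RPKM in DMSO. FGFR3 made up 23.8% to 28.4% of the FGF receptor RPKM in DMSO, or 41.2% to 49.5%, the highest share of the 4, with the length of all exons. MET (33.5 to 44.4 against 25.1 to 30.3 RPKM) and IGF1R (12.1 to 21.1 against 7.28 to 10.1) were also higher in untreated MCF10A, without overlap. So were INSR (4.07 to 5.68 against 2.61 to 3.64) and FGFR2 (2.34 to 2.50 against 1.38 to 2.15). The ranges of AXL and FGFR1 overlapped. The tables were counted on different annotations and set side by side only, with no test.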

How the data were processed

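RNA-seq of poly(A) RNA was made with a kit that does not mark strand. Per the labels and the Methods, the authors aligned reads with TopHat to hg19 and counted them with HTSeq; the deposited values are raw counts per gene, in one table for the untreated cells and another, on a different annotation, for the Nutlin-3a experiment. The annotations, the strand setting and the treatment of overlapping genes are not given in the sources used here.

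For each table a separate model was made in edgeR 4.0.16 (R 4.3.3): filterByExpr at its defaults, TMM, quasi-likelihood F-test, prior count of 0.125, Benjamini-Hochberg adjustment over all genes tested, and standard errors derived from the F statistic and the log2 fold change. CPM use TMM-scaled library sizes, and RPKM the canonical transcript of GENCODE v44lift37. Figures used matplotlib 3.10.9. Simulated counts served to test the scripts. The receptors, lists and motifs were chosen with earlier results of these data known. Named are all 9 receptors, HRAS, marker genes, the DE genes of the lists and overlapping genes. Of the list of ligands, only HGF, INS, FGF10 and FGF11 are given among those that were not DE. For the 3 DE receptors with the largest change the 3 nearest profiles are named. IRS2, IRS1, DDR2 and CSF1R's position were added after their values were seen. Results of 3 genes that the counts include are not reported here. As alternatives, DESeq2 1.42.0, the exact test of edgeR, other scaling factors, other filters, an unadjusted p with a fold above 1.3, a prior count of 2, the replicate block and leaving out each library were run.

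The labels number the libraries. In the Nutlin-3a experiment libraries that share a number deviated together from their groups' means (r of 0.67, 0.72 and 0.73 over 11620 genes, against -0.53 to -0.23 for other pairs), so the numbers pair them. P-values measure the spread between these samples, which the Methods call biological replicates without describing separate cultures. Reads carry no molecular identifiers, so limits from a count of 0 (3 counts) cover counting error only. The other assays of the study were not analysed here.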

Additional observations from a re-analysis of the deposited data

How the results depend on the processing

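In the untreated cells the direction of all 5 DE receptors was the same in all 18 alternatives. FGFR1, FGFR2, FGFR3 and IGF1R lost their calls only without MCF10A replicate 1, by edgeR, and INSR in 7. DE receptors numbered 0 to 5 when a library was left out and 4 or 5 in the other alternatives. PDGFRB ranged from -0.35 to 0.92 by edgeR and from -0.36 to 0.93 by DESeq2 when a library was left out, with the lowest values without G12V replicate 2. DE genes numbered 1575, 2536 with the exact test, 3676 with an unadjusted p, and 0 to 2129 when a library was left out. The genes of the lists that were DE numbered 17, 26 with DESeq2, 31 with an unadjusted p, and 0 to 23 when a library was left out. Replicate numbers 1 and 2 are shared by MCF10A and G12V, and deviations of the same number correlated at 0.58, but with only 2 pairs the samples share only a number. With the replicate block 4158 genes, 5 receptors and 38 genes of the lists were DE. In the Nutlin-3a experiment 23 genes were DE, 91 with DESeq2, 84 with the exact test, 99 with no filter, 332 with an unadjusted p, 165 with the replicate block and 7 to 11 when a library was left out. DE receptors numbered 0 in all 16 alternatives, and of the receptors and lists the block changed the call of IRS1 alone. DE genes of the lists numbered 1 with an unadjusted p and 1 with the block. When a library was left out AXL ranged from -0.35 to 0.32, MET from -0.17 to 0.21, IGF1R from -0.25 to 0.31 and FGFR3 from -0.00054 to 0.46, with the lowest values without Nutlin-3a replicate 1, or for FGFR3 without Nutlin-3a replicate 3. AXL, MET and IGF1R were also negative without DMSO replicate 3. Where the cause of a difference is not plain from the alternative, the cause was not tested. With 2 or 3 libraries a group, differences well within the intervals given could not be detected, and PDGFRA and PDGFRB were limited by their low counts.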
